A study of Homo sapiens with 88 samples.

Results

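The 8 genes described here, LBH, FRZB, SFRP1, DKK1, DKK3, AXIN2, LEF1 and TCF7L2, belong to the Wnt pathway or are described as its targets. They were read from all probe sets that the array's annotation assigns to 1 of them alone, 30 of 41091 probe sets with a single gene symbol and 8 of 19775 genes. The genes were chosen by their measured levels under vehicle and their difference between treated and vehicle arrays, so both are given as a description without a test.

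The series asked how an inhibitor of the histone demethylase LSD1 alters expression in lines of small cell lung cancer (SCLC), an aggressive tumour that often keeps a neuroendocrine character. Total RNA of 9 established human lines was hybridised to 88 Affymetrix HG-U133 Plus 2.0 arrays. The time course lines COLO668, SHP-77, NCI-H146, NCI-H446, NCI-H510 and NCI-H526 received the vehicle DMSO or a treatment titled 552A for 2, 4 or 7 days, and H69, H2171 and H1417 for 4 days. The protocol names GSK2879552, an LSD1 inhibitor, at 1 µM, but no label says that 552A is that compound, and no label says which lines were sensitive or resistant to it. All lines grew in RPMI with serum, and the labels name no allele, vector or other agent. Line, treatment and day made 42 groups, of which 39 had 2 arrays, 2 had 3 and 1 had 4. SHP-77 had 6 arrays under DMSO and 8 under 552A, NCI-H526 had 6 and 7, and NCI-H446 had 7 and 6. NCI-H510, COLO668 and NCI-H146 had 6 in each arm, and H69, H2171 and H1417 had 2 in each arm. The labels do not say whether a group's arrays were separate cultures. P-values therefore measure only the spread between arrays, which may be technical.

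Wnt ligands are secreted proteins that bind Frizzled receptors and the coreceptors LRP5 and LRP6. Without ligand, a complex that holds AXIN proteins, APC and GSK3 marks β-catenin for destruction, and with ligand β-catenin accumulates, enters the nucleus and joins TCF and LEF proteins on target genes. Secreted inhibitors such as the SFRP and DKK proteins act outside the cell, on the ligands or the coreceptors, and several of them are silenced by DNA methylation in many tumours.

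Levels are log2 signals as deposited, and a response is the mean under 552A minus the mean under DMSO on that scale, averaged over the days of a line with equal weight. A signal below 6.09, the median over arrays of each array's lower quartile, is called dim, and a ratio against a dim mean may understate the change. Probe sets with at least 1 group mean above 7.41, the median of all values, entered the tests, which 29598 did. Of the 30 member probe sets 24 passed this filter and 6 did not. The first probe set described for a gene is the one with its highest average signal. Signals of different genes, or of different probe sets, are not compared, since each probe set has its own scale.

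The arrays separated by line. For all 88 arrays the most similar array was of the same line, and for 80 it was also of the same treatment. Correlations within a group were at least 0.970, and no pair of arrays held identical values. The neuroendocrine markers INSM1 (12.4 to 13.8 under DMSO), CHGA (10.8 to 13.6) and NCAM1 (10.7 to 12.8) were high in all lines, while the immune marker PTPRC and the endothelial marker KDR were dim in all. CDH5, an endothelial gene, was at 10.9 in NCI-H446, and COL1A2, a fibroblast gene, was at 12.0 in H69. In 5 arrays of day 7 the 3′ minus 5′ signal of ACTB, a sign of RNA integrity, lay between 0.88 and 1.67, against at most 0.73 elsewhere. They were SHP-77 DMSO replicate 1 and 552A replicates 1 and 2, and COLO668 DMSO replicate 1 and 552A replicate 2. NCI-H446 DMSO day 4 replicate 2 had the lowest interquartile range, 2.56 against 2.89 to 3.24 in the others. Results that rest on these 6 arrays are also given without them. In bulk RNA, fewer cells of a type and less RNA per cell cannot be told apart.

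LBH encodes a transcription cofactor first described in the developing limb bud and heart, and it is known as a target of Wnt signalling in epithelial cells. Its only probe set, 221011_s_at, was above the filter in 33 of 42 groups. The 250 bases before its start site are shown because LBH had the largest responses of the 8 genes. They come from the RefSeq annotation of GRCh38.p14, chr2:30231284-30231533 on the plus strand, and capitals mark the TATAAA motif that begins 31 bases before the start.
LBH: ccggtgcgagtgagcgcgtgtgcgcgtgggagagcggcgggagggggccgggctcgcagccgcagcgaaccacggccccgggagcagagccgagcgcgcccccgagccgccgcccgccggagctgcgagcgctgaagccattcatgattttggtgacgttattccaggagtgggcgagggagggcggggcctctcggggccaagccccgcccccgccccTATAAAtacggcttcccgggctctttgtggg
This window had a GC content of 72.8% and 32 CpG dinucleotides, against medians of 58.0% and 11 over 35116 windows of the same kind, and 85.3% of those had a lower GC content. The motif TATAAA, searched on both strands, was present in 10.7% of all windows, so its presence is a description of this promoter and not a site of binding.

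Under DMSO, LBH was highest in H2171 at 10.11 ± 0.36 (SD, n = 2 arrays) and lowest in SHP-77 at 6.26 ± 0.21 (n = 6). Between them lay H1417 at 8.73 ± 0.19 (n = 2), H69 at 8.61 ± 0.01 (n = 2), NCI-H526 at 8.30 ± 0.25 (n = 6), NCI-H446 at 8.25 ± 0.40 (n = 7), NCI-H146 at 8.16 ± 0.15 (n = 6), NCI-H510 at 7.94 ± 0.06 (n = 6) and COLO668 at 6.85 ± 0.28 (n = 6). Neighbours in this order overlapped in their arrays, except that H2171 stood apart from H1417, and NCI-H510 from COLO668.

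In COLO668, the DMSO arrays read 6.67 and 6.84 at day 2, 6.40 and 7.11 at day 4, and 6.92 and 7.13 at day 7, and the 552A arrays 8.53 and 8.72, 9.32 and 9.38, and 9.74 and 9.88. All 6 treated arrays lay above all 6 vehicle arrays, and the lowest treated pair was that of day 2. The response was 2.41 ± 0.12 (SE of the fit), a 5.33-fold difference, with 1.87 at day 2, 2.59 at day 4 and 2.78 at day 7. It was 2.36 without the arrays in doubt. In NCI-H510 the vehicle arrays lay at 7.95 and 8.0, 7.89 and 8.02, and 7.94 and 7.85 on days 2, 4 and 7, and the treated arrays at 10.07 and 10.24, 10.22 and 10.32, and 10.54 and 10.66. The arms were again fully apart, with a response of 2.40 ± 0.12, or 5.28-fold. In NCI-H146 the vehicle arrays read 8.15 and 7.87, 8.31 and 8.28, and 8.19 and 8.18, and the treated arrays 9.49 and 9.89, 9.70 and 9.92, and 9.70 and 9.78. This line was level over time, at 1.68, 1.52 and 1.55 on days 2, 4 and 7, with a mean of 1.58 ± 0.12 (3.00-fold).

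The lines sampled only at day 4 differed widely in LBH. In H1417 the signal was 8.87 and 8.60 under DMSO and 12.06 on both treated arrays. The arms were far apart, and the response of 3.33 ± 0.21 was 10.03-fold, the largest of any member in any line. In H69 the values were 8.62 and 8.60 under DMSO and 9.80 and 9.74 under 552A, a response of 1.16 ± 0.21. In H2171, where LBH was highest under vehicle, they were 10.36 and 9.86 against 10.44 and 10.46, so the arms did not overlap but differed by 0.34 ± 0.21 only.

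LBH was not higher under 552A in NCI-H526, and SHP-77 and NCI-H446 had small differences. NCI-H526 read 7.95 and 8.14 under DMSO and 7.57, 7.61 and 7.51 under 552A at day 2, 8.30 and 8.27 against 7.36 and 7.74 at day 4, and 8.48 and 8.67 against 8.46 and 7.96 at day 7. Treated arrays lay below vehicle arrays on each day, although the arms overlapped over the whole course, and the response was -0.53 ± 0.12, which is 1.44-fold higher under DMSO. NCI-H446 read 7.92 and 7.82 against 8.16 and 7.96 at day 2, 8.14, 7.92 and 8.76 against 8.54 and 8.58 at day 4, and 8.73 and 8.50 against 8.98 and 9.35 at day 7. Its response was 0.34 ± 0.12. The 7.92 of day 4 belongs to the array with the low interquartile range, and without the arrays in doubt the response was 0.29 ± 0.12. SHP-77 arrays lay between 6.02 and 6.64 under DMSO, with a median of 6.23, and between 5.97 and 6.93 under 552A, with a median of 6.35. Its arms overlapped throughout, with a response of 0.07 ± 0.12.

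**Figure D1:**
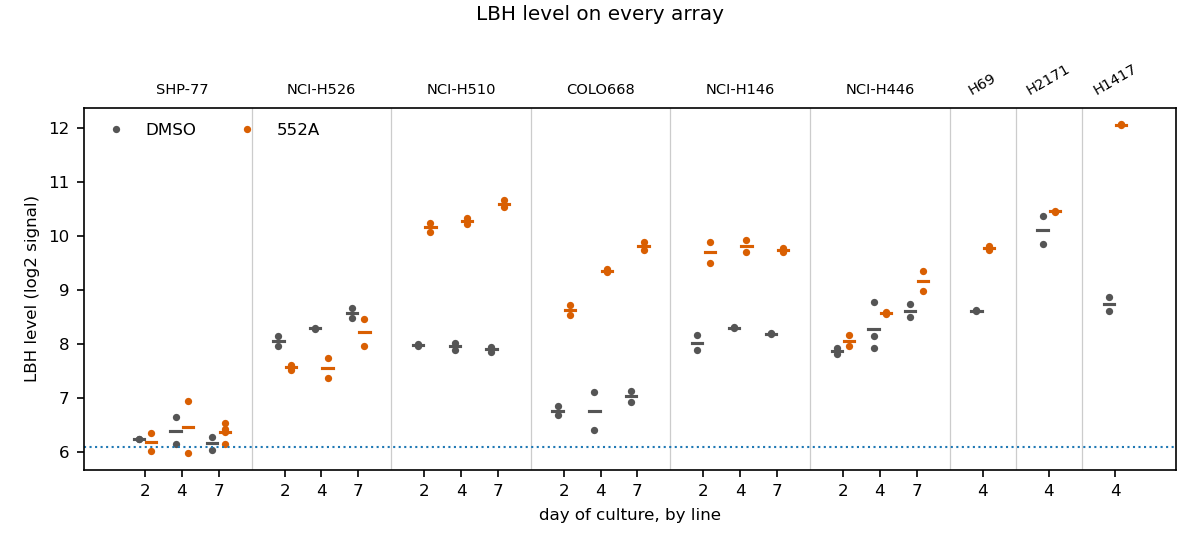
LBH log2 signal (vertical axis) on each of the 88 arrays by line and day (horizontal axis), with DMSO in grey and 552A in orange. Bars mark group means and the dotted line the dim limit of 6.09, and the arms are fully apart in NCI-H510, COLO668, NCI-H146, H69, H2171 and H1417.

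FRZB encodes a secreted Frizzled-related protein that binds Wnt ligands outside the cell. Its probe set 203697_at was above the filter in 16 of 42 groups. The 250 bases before its start, chr2:182866638-182866887 on the minus strand of GRCh38.p14 (RefSeq), are shown beside those of LBH because these genes share the high responses and differ in base composition.
FRZB: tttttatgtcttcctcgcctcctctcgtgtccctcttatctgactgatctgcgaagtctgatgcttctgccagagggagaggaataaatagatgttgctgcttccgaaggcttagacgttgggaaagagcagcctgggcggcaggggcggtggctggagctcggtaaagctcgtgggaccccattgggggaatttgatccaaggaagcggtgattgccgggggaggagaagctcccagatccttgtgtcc
This window had a GC content of 55.6% and 11 CpG dinucleotides. It held none of the motifs searched on both strands, so no base is capitalised. The motifs were TATAAA, the E-box word CACCTG, which overlaps none of the others, and a core word of TCF and LEF sites in 4 forms. The forms were CTTTGAA, with a changed end CTTTGAT, in a further form CTTTGTA, or lastly CTTTGTT. These forms and TATAAA can share end bases. The E-box word was present in 17.5% of all windows and any of the core words in 12.0%, and LBH held neither. Among the other members with a window of this kind, DKK1 held CTTTGAA at 95, CTTTGTT at 76 and TATAAA at 30 bases before its start, and 1 of 3 TCF7L2 windows held CTTTGTT. LEF1 held none of the words.

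Under DMSO, FRZB was highest in COLO668 at 9.52 ± 0.42 (SD, n = 6 arrays) and H69 at 8.75 ± 0.08 (n = 2), followed by H2171 at 7.85 ± 0.25 (n = 2), NCI-H510 at 7.72 ± 0.22 (n = 6) and NCI-H146 at 7.06 ± 0.20 (n = 6). H2171 and NCI-H510 overlapped, and the others of these lines did not. The means of NCI-H446 (5.92 ± 0.30, n = 7), H1417 (5.82 ± 0.54, n = 2), SHP-77 (5.59 ± 0.13, n = 6) and NCI-H526 (5.44 ± 0.23, n = 6) were dim, and their order has no meaning.

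FRZB was higher under 552A in NCI-H146 and H69. In NCI-H146 the vehicle arrays read 7.19 and 6.76 at day 2, 7.07 and 6.86 at day 4, and 7.25 and 7.21 at day 7, and the treated arrays 9.16 and 9.37, 9.40 and 9.54, and 9.74 and 9.92. The arms were fully apart on each day, and the response was 2.47 ± 0.12 (5.52-fold), with 2.29, 2.51 and 2.60 by day. In H69 the values were 8.70 and 8.81 under DMSO and 10.83 and 10.80 under 552A, a response of 2.06 ± 0.20, or 4.17-fold. The second probe set that passed, 203698_s_at, gave 1.38 ± 0.10 in NCI-H146 and 1.72 ± 0.17 in H69, and over 21 ratios of line and day it followed the first with a Pearson correlation of 0.95. The probe sets 231273_x_at and 244419_at did not pass the filter and were dim on 80 and 88 of the 88 arrays. A mean over all 4 FRZB probe sets therefore gives a smaller response, 1.00 in NCI-H146 and 1.14 in H69.

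COLO668 and NCI-H510, which had the large LBH responses beside H1417, differed in the direction of FRZB. In COLO668 FRZB read 9.19 and 8.99 against 9.75 and 9.60 at day 2, 9.49 and 9.46 against 10.01 and 10.08 at day 4, and 9.88 and 10.11 against 10.60 and 10.55 at day 7, DMSO first. Treated arrays lay above vehicle arrays on each day but overlapped them over the course, because the vehicle signal was itself higher at day 7, and the response was 0.58 ± 0.12. In NCI-H510 it read 7.96 and 7.95 against 7.06 and 7.02, 7.38 and 7.69 against 7.24 and 7.11, and 7.65 and 7.67 against 6.74 and 6.96. All treated arrays lay below all vehicle arrays there, with a response of -0.69 ± 0.12, and 203698_s_at gave -0.38 ± 0.10. H2171 read 8.03 and 7.68 against 7.86 and 8.08, with overlapping arms, and in SHP-77, NCI-H526, NCI-H446 and H1417 FRZB was dim or near it in both arms. Whether the response of FRZB differed between NCI-H510 and NCI-H146 was not tested, since these values chose the gene.

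**Figure D2:**
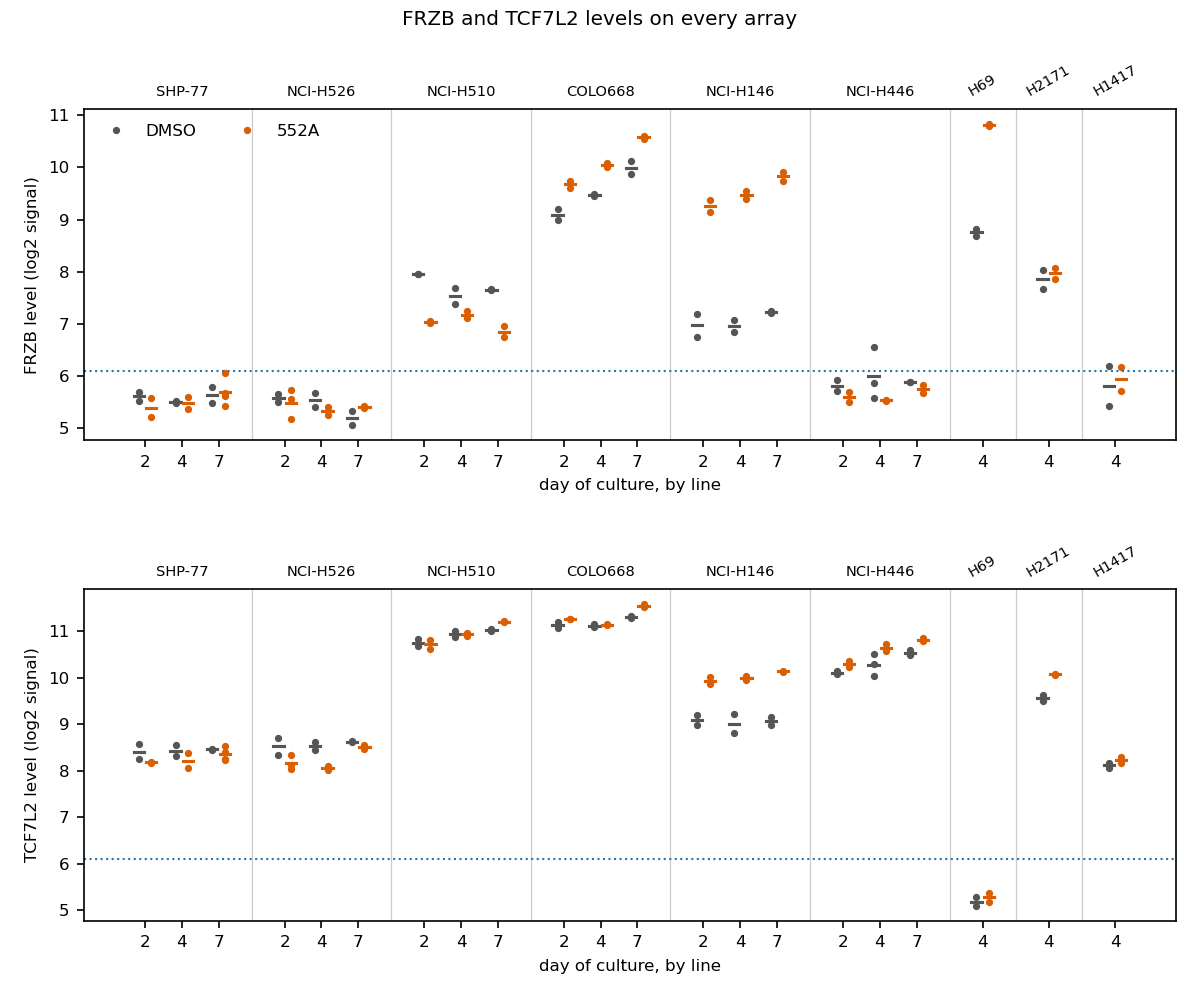
FRZB (203697_at, above) and TCF7L2 (212761_at, below) log2 signal on each array by line and day, with DMSO in grey, 552A in orange, bars at group means and a dotted line at the dim limit of 6.09. NCI-H146 has its treated arrays above its vehicle arrays in both panels, and in NCI-H510 the treated FRZB arrays lie below.

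SFRP1, a secreted Frizzled-related protein like FRZB, differed between lines but little between arms. Its probe set 202037_s_at was highest under DMSO in NCI-H510 at 10.24 ± 0.17 (SD, n = 6), then NCI-H146 at 8.80 ± 0.18 (n = 6) and NCI-H446 at 8.61 ± 0.19 (n = 7), while the means of the other 6 lines lay between 6.59 and 6.73. In NCI-H510 the vehicle arrays ranged from 10.05 to 10.51 and the treated arrays from 10.18 to 10.49, so that the arms overlapped. Responses by line lay between -0.21 ± 0.10 in NCI-H446 and 0.20 in SHP-77, and those of single days between -0.34 and 0.28. SFRP1 was above the filter in 18 of 42 groups with this probe set, and its other sets followed it weakly, with correlations of 0.54, 0.16 and 0.05 over line and day ratios.

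DKK1, which blocks Wnt signals by binding the coreceptors LRP5 and LRP6, was near the lower end of detection. Its only probe set was dim on 47 of 88 arrays and passed the filter through 1 group, COLO668 under 552A at day 7. Under DMSO it was highest in COLO668 at 7.04 ± 0.28 (SD, n = 6) and NCI-H510 at 6.68 ± 0.28 (n = 6), and the other means lay between 5.82 and 6.12. In COLO668 at day 7 the vehicle arrays read 7.07 and 7.46 and the treated arrays 7.79 and 8.02. The difference of 0.64 ± 0.18 was 0.33 ± 0.25 without the arrays in doubt, and the same line gave -0.12 at day 2 and 0.19 at day 4. Line means of the response lay between -0.14 and 0.24.

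DKK3, a divergent member of the DKK family, had moderate responses in several lines that included the one where LBH was lower. Its probe set 214247_s_at was above the filter in 30 of 42 groups and was highest under DMSO in NCI-H146 at 10.63 ± 0.11 (SD, n = 6). It lay at 9.62 ± 0.27 in NCI-H526, 9.43 ± 0.19 in NCI-H510, 9.27 ± 0.02 in H69, 8.87 ± 0.03 in H1417, 8.25 ± 0.29 in NCI-H446, 7.31 ± 0.15 in H2171 and 6.72 ± 0.36 in COLO668, and it was dim in SHP-77 at 5.92 ± 0.17. In this order NCI-H526 overlapped NCI-H510, NCI-H510 overlapped H69, and H2171 overlapped COLO668.

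In NCI-H526, DKK3 read 9.43 and 9.58 under DMSO and 10.22, 10.22 and 10.23 under 552A at day 2, 9.36 and 9.49 against 10.09 and 10.31 at day 4, and 9.74 and 10.09 against 10.46 and 10.98 at day 7. Treated arrays lay above vehicle arrays on each day, and the response was 0.76 ± 0.09 (1.70-fold). In NCI-H510 the pairs were 9.20 and 9.20 against 9.67 and 9.79, 9.44 and 9.49 against 10.08 and 10.09, and 9.58 and 9.65 against 9.96 and 10.18, a response of 0.54 ± 0.09 with the arms apart. In COLO668 they were 6.41 and 6.65 against 6.77 and 6.91, 6.35 and 6.72 against 7.00 and 7.23, and 6.89 and 7.34 against 8.18 and 8.76. The difference there was larger at day 7, at 1.36, than at day 2, at 0.31, and was 1.42 at day 7 without the arrays in doubt. The mean over days was 0.75 ± 0.09.

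NCI-H446 had a DKK3 response of 0.81 ± 0.09, uneven over days. The arrays read 7.89 and 8.06 against 8.96 and 9.03 at day 2, 8.17, 8.23 and 8.77 against 8.57 and 8.75 at day 4, and 8.12 and 8.47 against 9.42 and 9.45 at day 7. The arms were apart at days 2 and 7 and overlapped at day 4, and without the arrays in doubt the response was 0.78. H69 was lower under 552A, with 9.25 and 9.28 against 8.88 and 8.94 and a response of -0.35 ± 0.16. H2171 read 7.20 and 7.42 against 7.66 and 7.88 (0.46 ± 0.16), and NCI-H146, where DKK3 was highest, had 0.08. Of the other DKK3 probe sets, 202196_s_at gave 0.74 in NCI-H526, 0.59 in NCI-H510, 0.46 in COLO668, 0.65 in NCI-H446 and -0.38 in H69. The remaining set that passed, 230508_at, gave 0.45 in NCI-H526 and 0.36 in COLO668. In NCI-H446 it gave only 0.18 ± 0.11, which was 0.31 without the arrays in doubt. Of the 3 that did not pass, 207875_at and 221126_at were flat, and 221127_s_at gave 0.58 in NCI-H526.

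AXIN2, a scaffold of the complex that destroys β-catenin and itself a widely used target gene of the pathway, differed modestly between arms. Under DMSO, 222696_at was highest in H2171 at 9.84 ± 0.22 (SD, n = 2), followed by H69 at 9.37, NCI-H146 at 9.18, H1417 at 9.09, SHP-77 at 8.92 and NCI-H510 at 8.69. It was lowest in NCI-H526, COLO668 and NCI-H446, at 7.67, 7.50 and 7.47, which overlapped. In NCI-H526 the arrays read 7.45 and 7.70 against 7.89, 7.91 and 7.95 at day 2, 7.24 and 7.85 against 8.09 and 8.10 at day 4, and 7.79 and 8.02 against 8.25 and 8.40 at day 7. Treated arrays were above vehicle arrays on each day, with a response of 0.44 ± 0.10. COLO668 had 0.33 ± 0.10, which was 0.23 ± 0.10 without the arrays in doubt, H1417 had 0.38 ± 0.17, NCI-H446 had 0.20, and the others lay between -0.12 and 0.14. The 3 other AXIN2 probe sets gave responses between -0.14 and 0.20 in all lines and followed 222696_at with correlations of 0.33, 0.16 and -0.01, so the difference in NCI-H526 rests on 1 probe set.

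LEF1, a DNA-binding partner of β-catenin, had one of the widest ranges between lines. Under DMSO, 221558_s_at was at 12.25 ± 0.13 (SD, n = 6) in NCI-H510, 12.10 ± 0.17 (n = 2) in H1417, 11.43 in H69, 11.15 in NCI-H146, 10.43 ± 0.21 in SHP-77 and 9.60 in COLO668. It was much lower in NCI-H446, NCI-H526 and H2171, at 6.89, 6.67 and 6.33. NCI-H510 and H1417 overlapped, as did NCI-H446 and NCI-H526, and all other neighbours in this order stood apart. Differences between arms were small beside this range. H2171 read 6.29 and 6.37 under DMSO and 5.51 and 5.87 under 552A, a response of -0.64 ± 0.12 against a dim treated mean. NCI-H526 read 6.61 and 6.76 against 6.77, 6.87 and 7.05 at day 2, 6.68 and 6.78 against 7.18 and 7.19 at day 4, and 6.52 and 6.69 against 6.88 and 7.13 at day 7, with treated arrays above on each day and a response of 0.35 ± 0.07. COLO668 had 0.32 ± 0.07, which was 0.23 without the arrays in doubt, H1417 had 0.32 ± 0.12 and NCI-H146 had 0.22. In SHP-77 the difference was -0.05 at day 2, -0.22 at day 4 and -0.36 at day 7, where vehicle arrays read 10.12 and 10.22 and treated arrays 9.66, 9.77, 9.89 and 9.92. The mean of -0.21 ± 0.07 in SHP-77 was -0.20 without the 3 arrays of that line in doubt. The other 2 LEF1 probe sets gave responses between -0.17 and 0.29.

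TCF7L2, the other DNA-binding partner of β-catenin among the members, was read by 7 probe sets that all passed. Under DMSO, 212761_at was at 11.18 ± 0.10 (SD, n = 6) in COLO668, 10.91 in NCI-H510, 10.31 in NCI-H446, 9.56 in H2171, 9.06 ± 0.16 in NCI-H146, 8.56 in NCI-H526, 8.43 in SHP-77 and 8.12 in H1417, and it was dim in H69 at 5.19 ± 0.12. In NCI-H146 the arrays read 8.99 and 9.21 against 9.86 and 10.01 at day 2, 8.80 and 9.22 against 9.95 and 10.04 at day 4, and 8.98 and 9.16 against 10.13 and 10.14 at day 7. The arms were fully apart, and the response was 0.96 ± 0.07 (1.95-fold), with 0.84, 0.98 and 1.06 by day. H2171 read 9.50 and 9.62 against 10.06 and 10.07 (0.51 ± 0.13), again with the arms apart. NCI-H526 was lower under 552A, at 8.35 and 8.70 against 8.03, 8.12 and 8.34, 8.45 and 8.63 against 8.02 and 8.11, and 8.61 and 8.64 against 8.46 and 8.56, with a response of -0.32 ± 0.07. NCI-H446 had 0.28 ± 0.07, SHP-77 had -0.18 and the others lay between 0.04 and 0.13.

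The TCF7L2 probe sets shared a sign but not a size in NCI-H146, and differed in sign in H69. In NCI-H146 the other sets gave 0.92, 0.91, 0.87, 0.69, 0.26 and 0.15, all above 0. In H69, 212762_s_at gave -0.93 ± 0.17, from 5.70 and 5.63 under DMSO and 4.54 and 4.93 under 552A, all dim. There 216035_x_at gave 0.95 ± 0.18, from 5.45 and 5.23 against 6.52 and 6.06, and 216037_x_at gave 0.89 ± 0.18, from 6.29 and 6.26 against 7.28 and 7.05. The name of the last pair of sets ends in _x_at, which Affymetrix gives to sets that may cross-hybridise, and 212761_at gave 0.09. No direction is therefore given for TCF7L2 in H69.

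**Figure D3:**
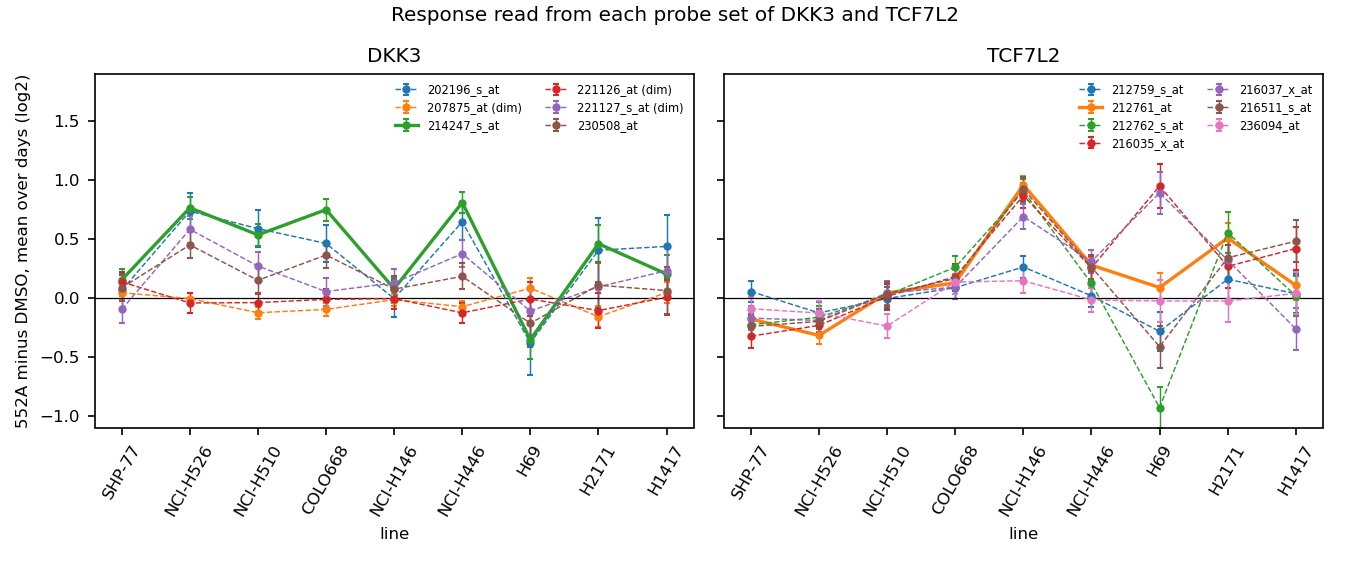
Response of each probe set of DKK3 (left) and TCF7L2 (right) by line, as 552A minus DMSO on the log2 scale averaged over days, with bars of 1 SE of the fit and a thick line for the probe set described first. The TCF7L2 sets run from 0.15 to 0.96 in NCI-H146, all above 0, and spread from -0.93 to 0.95 in H69, while 3 of 6 DKK3 sets did not pass the filter and are named dim.

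Set side by side, the members did not share one pattern over lines. H1417, COLO668, NCI-H510 and NCI-H146 had the highest LBH responses. Of these, NCI-H146 also had high FRZB and TCF7L2, COLO668 had higher DKK3 and a smaller difference in FRZB, NCI-H510 had higher DKK3 and lower FRZB, and H1417 had no other member called. In NCI-H526 LBH and TCF7L2 were lower, while DKK3, AXIN2 and LEF1 were higher. As a description over 21 line and day ratios, of which up to 3 come from 1 line and in which both genes are read on the same arrays, the Pearson correlation was 0.16 between LBH and FRZB, 0.70 between FRZB and TCF7L2, 0.51 between DKK3 and AXIN2 and -0.67 between AXIN2 and TCF7L2.

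**Figure D4:**
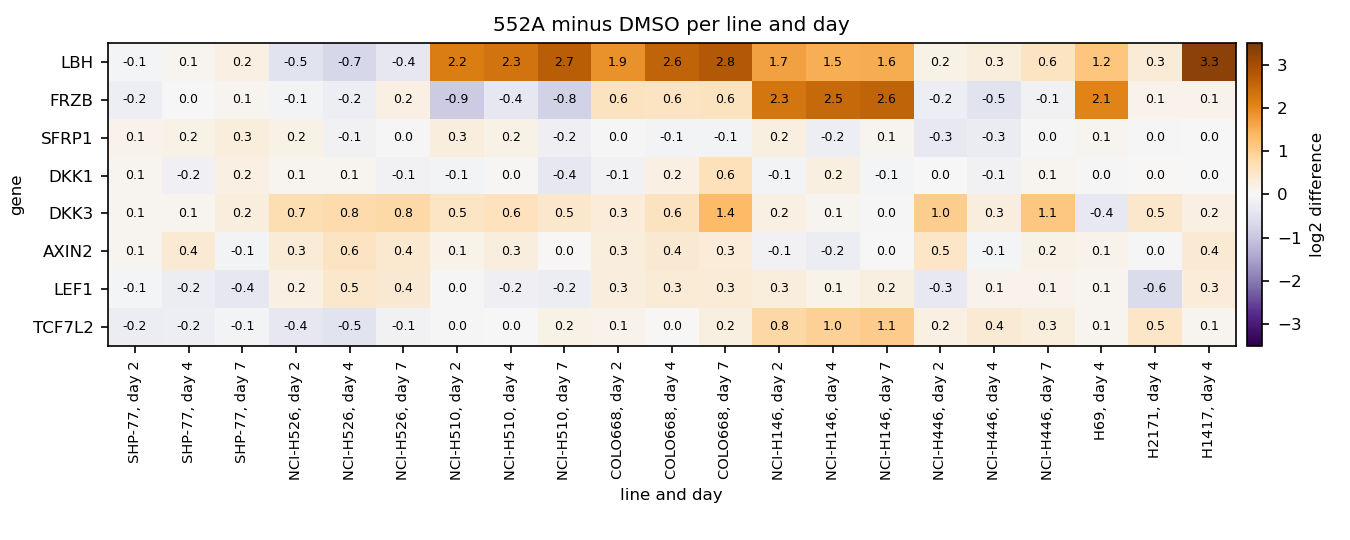
Response of the 8 members (rows, 1 probe set each) by line and day (columns), as 552A minus DMSO on the log2 scale, orange above 0 and purple below. LBH is above 1.5 in NCI-H510, COLO668, NCI-H146 and H1417, and FRZB above 2 in NCI-H146 and H69.

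Counts of member probe sets past the threshold used for all genes, an adjusted p under 0.05 in limma's moderated test, are given as a description, since the same contrast chose the members. Averaged over days, 8 of 24 were called higher and 0 lower in COLO668, where 10.4% of all probe sets tested were called higher and 6.79% lower. In NCI-H146 8 were higher and 0 lower, against 3.17% and 1.76%. In NCI-H526 5 were higher and 2 lower (9.12% and 8.43%), and in NCI-H510 3 and 2 (7.58% and 5.1%). H69 had 5 higher and 1 lower (1.85% and 1.22%), NCI-H446 3 and 0 (3.5% and 0.858%) and SHP-77 0 and 2 (2.68% and 3.44%). H2171 had 1 in each direction (1.04% and 0.382%), and H1417 1 higher and 0 lower (4.34% and 2.71%). Probe sets of 1 gene are not independent, and of the 8 in NCI-H146, 5 belong to TCF7L2 and 2 to FRZB. In NCI-H446 the DKK3 set 230508_at was not called with all arrays (0.18) but was without those in doubt (0.31). Without the arrays in doubt the 2 calls in SHP-77, LEF1 221558_s_at and TCF7L2 216035_x_at, were not made, and in COLO668 AXIN2 was not called while 2 sets of TCF7L2 were.

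Time in culture was examined in the vehicle arrays alone, which is a contrast that did not choose the members. Over the 6 time course lines, with the line as the replicate, none of the 24 member probe sets passed in limma for day 7 minus day 2, where 0.00338% of all probe sets were called. LBH was at 0.26 ± 0.11 (SE, n = 6 lines, adjusted p = 0.521 in limma) and DKK3 at 0.33 ± 0.07 (adjusted p = 0.411 in limma). Within COLO668, where 2.18% of probe sets were called upward and 1.48% downward, FRZB rose by 0.90 ± 0.20 from day 2 to day 7 under vehicle (adjusted p = 0.00436, limma), as the arrays above show, and the difference was 1.02 without the arrays in doubt. The call was lost without DMSO day 2 replicate 2 (0.80, adjusted p = 0.0738) or DMSO day 7 replicate 2 (0.79, adjusted p = 0.121, limma). DKK3 rose by 0.58 ± 0.16 in COLO668 (adjusted p = 0.0315, limma), with values from 0.35 to 0.80 and a highest adjusted p of 0.499 when single arrays were left out. LEF1 fell by 0.55 in NCI-H446 (SE 0.12, adjusted p = 0.0300, limma, 0.0405% called downward), which was -0.44 with an adjusted p of 0.580 without DMSO day 2 replicate 1. The other within-line calls were those of LEF1 in SHP-77 (-0.37, from -0.43 to -0.32 when single arrays were left out, with 5.4% called downward), of the TCF7L2 set 212762_s_at in SHP-77 (0.58, from 0.25 to 0.91, with 2.6% called upward), of FRZB 203698_s_at in COLO668 (0.68, from 0.59 to 0.77) and of the TCF7L2 set 236094_at in COLO668 (-0.59, from -1.15 to -0.04). Each was lost when 1 or another array was left out. Without the arrays in doubt the calls in SHP-77 were lost (adjusted p = 0.216 and 0.499, limma), and 3 were gained in COLO668. These were AXIN2 222696_at (0.64), DKK1 (0.66) and DKK3 230508_at (0.46), and each rests on a single DMSO array of day 7. With all arrays DKK1 had passed the filter only through COLO668 under 552A at day 7, so the same line brought it into the test.

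Genes whose responses ran most like those of LBH and FRZB were sought by Pearson correlation over the 21 line and day ratios among 15119 genes. For LBH these were DPY19L1 (0.93), which encodes a protein of the family of C-mannosyltransferases, MICALL1 (0.91), an adaptor of endosomal recycling, and TKT (0.90), the transketolase of the pentose phosphate pathway. Their responses were smaller than that of LBH, with 0.57 for DPY19L1 in COLO668 and in H1417, 0.59 for MICALL1 in H1417 and 0.58 for TKT in H1417. For FRZB they were KCNK9 (0.93), a background potassium channel, ACBD6 (0.83) and PLPP4 (0.83), a lipid phosphatase. KCNK9 was at 2.07 in NCI-H146 and 1.63 in H69, close in size to FRZB there, and at -0.25 in NCI-H510.

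A list of 103 other Wnt pathway genes was set beside the members. It was drawn up with results of these arrays known, so its shares beside those of all genes are a description. They do not show that the pathway responds more than other genes. Of these 97 had a probe set of their own, and 84 were tested, each from 1 probe set. Averaged over days, 53 of the 84 were called in at least 1 line, 40 higher in a line and 26 lower, 13 of them in both directions. That is 63.1% of the list, against 46.5% of 15120 genes read the same way, and in 85 pairs of gene and line the gene rose and in 37 it fell, 16.1% of all pairs against 9.57%. Without the arrays in doubt 113 pairs rose and 47 fell. The median response of the list lay between -0.03 and 0.06 over lines, and that of all probe sets between -0.02 and 0.03. NCI-H510 had 18 genes up and 9 down, COLO668 18 and 3 and NCI-H526 14 and 9. The 18 in COLO668 were 11 with that line's own arrays alone, and the 9 in NCI-H526 were 14 without the arrays in doubt, which are of other lines but share the estimate of spread. With the line as the replicate at day 4, none of the 84 passed in limma (17 had an unadjusted p under 0.05, smallest adjusted p = 0.0904), where 0.00338% of all probe sets were called. The response differed between the time course lines for 51 of the 84, or 60.7%, by limma's moderated F test, against 36% of all genes read from 1 probe set and 31.8% of probe sets.

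Among ligands, 7 of 14 tested were called in a line, 3 upward and 6 downward. WNT5A, a ligand mostly tied to β-catenin-independent signals, fell by 1.32 in NCI-H510 (SE 0.14, adjusted p = 9.01e-11, limma) and rose by 0.80 ± 0.14 in NCI-H526 from a dim vehicle mean of 5.42. WNT16 rose by 0.86 ± 0.08 in NCI-H510, where WNT9A fell by 0.45 (SE 0.08). WNT9A also fell by 0.58 in H69, a call lost without any 1 of 2 arrays. WNT11 rose by 0.67 in H69 and fell by 0.81 in H1417. Its other calls, 0.56 in H2171 and -0.23 in NCI-H510, were lost without any 1 of 2 and of 4 arrays. WLS, the membrane protein that carries Wnt ligands to the cell surface, rose by 0.67 in NCI-H526 and 0.75 ± 0.12 in NCI-H510. Its calls in SHP-77 (0.37), NCI-H146 (0.41) and NCI-H446 (0.43) were lost without any 1 of 11, of 10 and of 5 arrays.

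Of 17 receptors tested, 14 were called in a line, 10 upward and 7 downward. FZD7 rose in 4 lines, by 1.24 ± 0.12 in NCI-H510 (adjusted p = 2.51e-12, limma), 0.72 in NCI-H446, and from dim vehicle means by 1.20 in NCI-H526 and 1.32 in H1417. FZD5 rose in 5 lines, by 0.26 in SHP-77, 0.31 in NCI-H510 and in COLO668, 0.36 in NCI-H446 and 0.52 in H69, and fell by 0.60 in NCI-H526 and by 0.88 in H1417. Its call in H69 was lost without any 1 of the 4 arrays, and those in COLO668 and NCI-H446 with the line's own arrays alone (adjusted p = 0.0697 and 0.233, limma). LGR4, a receptor for R-spondins, rose by 0.68 in NCI-H510, 0.64 in NCI-H446 and 0.34 in COLO668. It also rose by 0.72 in H2171, a call lost without 1 of the 4 arrays. Its relative LGR6 fell by 1.71 in H69 (SE 0.16) and by 0.99 in H2171.

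Of 10 extracellular or membrane inhibitors tested, 7 were called, 6 upward and 2 downward. KREMEN1, a receptor for DKK proteins, rose by 1.82 ± 0.07 in COLO668 (adjusted p = 2.37e-27, limma) and 1.56 ± 0.07 in NCI-H526. It also rose by 0.64 in NCI-H510 and 0.39 in SHP-77. APCDD1, a membrane inhibitor of the pathway, rose by 1.37 ± 0.12 in NCI-H146 (adjusted p = 4.32e-13, limma), 1.12 ± 0.21 in H69 and 1.05 ± 0.21 in H1417. SOSTDC1, a secreted inhibitor of BMP and Wnt signals, rose by 1.01 ± 0.10 in NCI-H526, 0.50 in NCI-H510 and 0.45 in NCI-H146. Its call in NCI-H446 (0.35) was lost without any 1 of 10 arrays. RNF43, a ligase that removes Frizzled from the membrane, rose by 0.64 in COLO668, 0.46 in NCI-H510 and 0.73 in H2171.

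Of 23 cytoplasmic transducers tested, 10 were called, 7 upward and 4 downward. DACT1, which binds DVL proteins, fell by 1.57 in NCI-H510 (SE 0.10, adjusted p = 5.32e-18, limma) and by 0.88 in SHP-77, and rose by 0.79 in NCI-H526 and 0.43 in NCI-H446, the last lost with that line's own arrays alone (adjusted p = 0.0555, limma). It also fell by 0.37 in NCI-H146, a call lost without any 1 of 6 arrays. Its relative DACT2 rose by 0.73 in COLO668 and 0.29 in NCI-H526. CTNNB1, which encodes β-catenin, rose by 0.23 in SHP-77 and 0.22 in NCI-H510, calls lost without any 1 of 11 and of 10 arrays. AXIN1, APC, GSK3A, GSK3B and CSNK1A1, which act in β-catenin destruction, were not called in any line. BTRC and TNKS, listed under the same role, were called in at least 1 line. Of 9 nuclear effectors tested 7 were called, 6 upward and 4 downward. TLE1, a corepressor of TCF proteins, rose by 0.59 in NCI-H526 and fell by 1.15 in H1417 (SE 0.11), a call lost with that line's own arrays alone (adjusted p = 0.0853, limma). TLE1 also fell by 0.37 in NCI-H510, 0.27 in NCI-H146 and 0.42 in H2171, the last lost without any 1 of 3 arrays. TLE4 rose by 0.74 in NCI-H510, 0.53 in NCI-H146, 0.90 in H1417 and 0.87 in H69, where the call was lost without any 1 of 3 arrays, and fell by 0.41 in NCI-H526.

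Of 10 further target genes 7 were called, 7 upward and 3 downward. SOX9, a transcription factor of progenitor cells, rose by 2.60 ± 0.27 in H1417 (adjusted p = 1.01e-10, limma) and 1.38 ± 0.15 in COLO668, and by 0.53 in NCI-H510, a call lost without 552A day 4 replicate 1 (adjusted p = 0.0519, limma). MYC rose by 0.97 ± 0.12 in NCI-H510 and fell by 0.39 in SHP-77, a call lost without any 1 of 5 arrays and with the replicate number as a block (adjusted p = 0.0763, limma). CCND1, the D cyclin of the cell cycle often listed as a Wnt target, rose by 0.43 in SHP-77, 0.39 in NCI-H146 and 0.34 in NCI-H446, and fell by 0.32 in COLO668. The call in NCI-H446 was lost with that line's own arrays alone (adjusted p = 0.0974, limma), and the one in COLO668 with the mean of all probe sets (adjusted p = 0.173, limma). The list was chosen with results of these arrays known, and its counts are read beside the shares over all genes only.

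**Figure D5:**
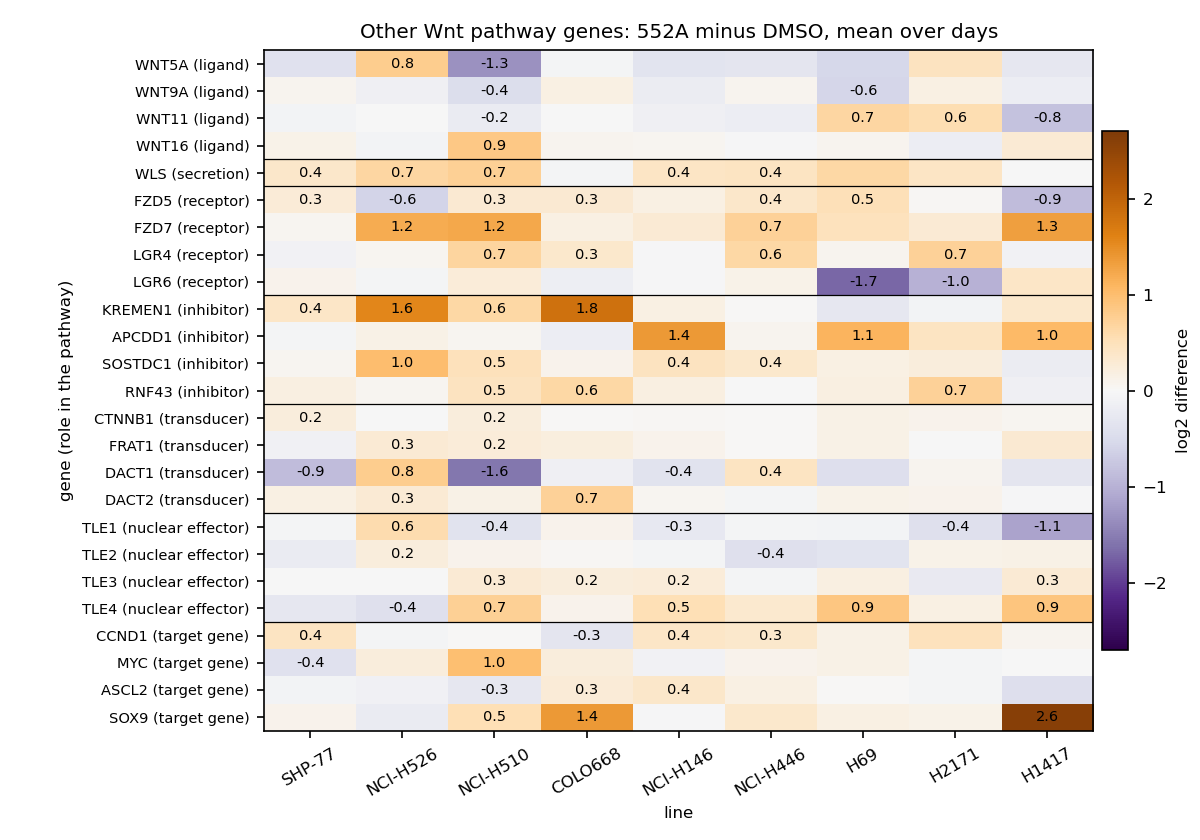
Responses of 25 other Wnt pathway genes (rows, with their role) in the 9 lines (columns), as 552A minus DMSO on the log2 scale averaged over days, orange above 0 and purple below, with the value printed where limma's adjusted p was under 0.05. KREMEN1 is highest in COLO668 and NCI-H526, APCDD1 in NCI-H146, H69 and H1417, and SOX9 in H1417.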

How the data were processed

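The values are log2 expression levels per probe set, in a table that the authors deposited for the whole series. How the program behind them corrected background and scaled arrays is not given in the sources used here. Array medians lay between 7.36 and 7.46, so no rescaling was applied. An array has no read depth, so precision is limited by the number of arrays. The 2016 probe annotation gave 41091 of 54675 probe sets a single symbol, 1801 more than 1, and 11721 no symbol, with 62 controls apart. No symbol changed through its Entrez ID and 54 had no match. All but those with a single symbol were left out. File names and columns were matched to samples through their titles.

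Tests used limma 3.58.1 in R 4.3.3 with version 1.17.8 of data.table (lmFit, eBayes, two-sided, Benjamini-Hochberg over 29598 probe sets of 15352 genes). The model had a mean for each of 42 groups, 46 degrees of freedom for the residuals and 5.60 for the prior, and its spread was pooled over lines. Differences of members that did not pass the filter came from a fit without it. The shared response at day 4 and the vehicle time effect used 1 ratio per line, with the line as replicate. The procedure was tested on simulated data. Tables and figures used Python 3.11.15 with matplotlib 3.10.9, numpy 2.4.6 and pandas 2.3.3.

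The members and lists were chosen with earlier results of these data known. Named in the text are all member probe sets, per role up to 4 list genes called in the most lines, and the 3 genes nearest to LBH and to FRZB. A gene is read from its probe set with the highest mean, with _x_at sets set aside where another exists. Alternatives were quantile normalization, other filters, 1 probe set per gene or the mean of all, the replicate number as a block, a trend on intensity, a fit at array level, own arrays alone, and each line or array left out. The removal of 6 arrays, the dim limit and the limit on the ACTB signal were chosen after the data were seen. Some cell type markers are not used here.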

Additional observations from a re-analysis of the deposited data

Results flagged for a closer look

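FRZB, DKK3 and LEF1 stood on opposite sides of 0 in different lines, with every treated array on one side of every vehicle array. FRZB was at -0.69 in NCI-H510 and between 2.06 and 2.47 in H69 and NCI-H146. DKK3 was at -0.35 in H69 and between 0.20 and 0.54 in H1417, H2171 and NCI-H510. LEF1 was at -0.64 in H2171, with a dim treated mean, and at 0.32 in COLO668 and H1417. These differences between lines were not tested, since the same values chose the genes.

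Of the list genes named, the response differed between the 6 time course lines by limma's moderated F test in the following. They were named for their calls within lines, which use the same values, so that choice favoured low p-values here. Of all genes read from 1 probe set, 36% passed this test. WNT11, LGR6 and CTNNB1 were also named and did not pass it. Among ligands and their carrier, the adjusted p was 8.03e-11 for WNT5A (responses from -1.32 to 0.80), 5.27e-05 for WNT9A, 4.26e-09 for WNT16 and 0.00259 for WLS (-0.06 to 0.75). Among receptors it was 1.2e-11 for FZD5, 9.78e-10 for FZD7 and 2.74e-08 for LGR4. KREMEN1 had the smallest of all, 5.76e-24, with responses from 0.00 to 1.82. The other inhibitors were APCDD1 at 1.75e-10 (-0.19 to 1.37), SOSTDC1 at 5.66e-06 and RNF43 at 5.61e-06. Cytoplasmic genes were DACT1 at 1.92e-19, with responses from -1.57 to 0.79, DACT2 at 1.61e-06 and FRAT1 at 0.0201. The corepressors had 1.89e-12 (TLE1), 1.38e-05 (TLE2), 4.56e-05 (TLE3) and 3.75e-07 (TLE4). Target genes had 9.72e-08 (CCND1), 1.01e-07 (MYC), 2.49e-05 (ASCL2) and 2.68e-07 (SOX9). None of 24 sets of values tested for an outlying member value held one. For each of the 8 members, read from 1 probe set, these were 3 sets. They were the day 4 responses of the 9 lines, the DMSO means of the 9 lines, and the 4 arrays of SHP-77 under 552A at day 7. All other groups had fewer arrays and were not tested.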

How the results depend on the processing

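No result that was called changed direction, but some small member responses that were not called did. Without the arrays in doubt FRZB 203697_at in SHP-77 went from -0.06 to 0.04. DKK3 230508_at in NCI-H446 at day 4 went from -0.24 to 0.14. With the mean of all probe sets, FRZB was 1.00 in NCI-H146 and 1.14 in H69, since the dim sets enter it. A fit at array level, which takes arrays and not lines as replicates, called 23 list genes in the shared response at day 4 and 3 in vehicle time, against 0 in both. Leaving out each array gave, for list genes within lines, 81 to 99 up and 35 to 48 down, by line and day 90 to 125 up and 41 to 54 down (99 and 44 with all arrays), and 46 to 56 that differed between lines. LBH ranged from 2.37 to 2.43 in NCI-H510, 2.30 to 2.53 in COLO668, 1.52 to 1.65 in NCI-H146, 1.13 to 1.19 in H69 and 3.19 to 3.46 in H1417, and FRZB from 2.39 to 2.54 in NCI-H146 and 2.00 to 2.12 in H69. Of 84 calls of named list genes, 63 were kept without each array of the line.

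Counts in SHP-77 (6 up, 4 down), NCI-H146 (7, 2), NCI-H446 (10, 2), H69 (4, 2) and H2171 (3, 2) moved by over 1.5 times without single arrays. SHP-77 had 3 up without DMSO or 552A day 2 replicate 2, 2 down without 552A day 2 replicate 2, DMSO day 4 replicate 1, 552A day 4 replicate 2 or DMSO day 7 replicate 1, and 8 down without DMSO day 7 replicate 2. NCI-H146 had 1 down without DMSO day 2 replicate 2, 552A day 4 replicate 1, DMSO day 7 replicate 1 or 552A day 7 replicate 2. NCI-H446 had 17 up and 7 down without DMSO day 4 replicate 1, and 4 down without 552A day 4 replicate 2. H69 had 2 up without DMSO replicate 2 or either 552A array, and 1 down without DMSO replicate 2 or 552A replicate 1. H2171 had 1 up without 552A replicate 1, and 1 down without it or either DMSO array. Own arrays alone gave 11 up in COLO668 and 3 up in NCI-H446.

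Replicate numbers did not pair the samples: of 21 line and day pairs, 9 correlated above 0.1, with a range from -0.54 to 0.48. With the replicate number as a block 91 list calls were up, 42 down and 51 differed between lines, and by line and day 110 and 43. H1417 then had 8 up against 5. The vehicle rise of DKK3 in COLO668 was not called under the block (0.64, adjusted p = 0.0811, limma), nor were FRZB 203698_s_at and TCF7L2 236094_at there (adjusted p = 0.0843 and 0.149, limma), nor LEF1 and TCF7L2 in SHP-77 (both with an adjusted p of 1.00, limma).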
